A study of Mus musculus with 13 samples.

Results

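The genes described here are the nuclear genes for the subunits of the mitochondrial respiratory chain and ATP synthase. Protein-coding genes were taken by symbol: those starting with Nduf (without the assembly factors named Ndufaf, and without Ndufa4l2), Sdha to Sdhd, those starting with Uqcr, Cyc1, those starting with Cox4 to Cox8, and those starting with Atp5. The rule found 86 genes among the 35498 genes of the files: 36 in complex I, 4 in complex II, 9 in complex III, 19 in complex IV and 18 in complex V. Ndufa4, first assigned to complex I, was counted in complex IV. Of the 86 genes, 80 passed the filter on low counts and were tested among 13044 genes. Of the 6 that did not, Cox6b2, Cox7b2, Cox8b, Cox8c and a second gene ID named Atp5o had no read in any library, and Cox4i2 had 23 reads in all 13 libraries together.

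The samples were mRNA libraries of cultured mouse melanoma lines, in a series on sAC, the soluble form of adenylyl cyclase and a source of cyclic AMP, placed in chosen parts of the cell with doxycycline, a drug that switches on inducible genes. Lines 6, 7 and 16 have NLS in their titles and were sampled with no doxycycline (t0) and at 6 h (t6) and 48 h (t48) of doxycycline, which gives 3 libraries in each of these groups. Lines 10 and 12 have LacZ in their titles and were sampled at t0 and t48, which gives 2 libraries in each. The sAC compartment is labelled none at t0 and nuclear at t6 and t48, also for LacZ at t48, which goes against those titles. Nothing in the labels says whether libraries of a line came from separate cultures, nor how the lines were made, so the p-values refer to library-to-library spread alone, which may be technical. Adcy10, the mouse gene for sAC, did not follow the time labels. Levels are in CPM, reads of the gene scaled to a common library total that was adjusted for composition (TMM). Line 6 had 366, 371 and 339 CPM at t0, t6 and t48, and line 7 had 200, 181 and 199 CPM. Line 16 had 0.671, 1.19 and 1.22 CPM, and no LacZ library exceeded 0.167 CPM. The library labels NLS and the time points are therefore used below as labels, and line 16 is the NLS line with almost no Adcy10 reads. Only mouse transcripts were counted, so an introduced sAC gene of another species or with altered codons may not be seen in these reads.

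Depth was 18512887 to 22584628 estimated reads per library. The summed level of 8 melanocyte-lineage markers was 3.35 to 8.02 CPM, with 6 of the 8 genes below 1 CPM in all libraries, so the labelled melanoma origin is not visible in pigment genes. The summed fibroblast markers were 7170 to 17600 CPM and moved between groups: 10100 to 12300 at NLS t0, 7820 to 9480 at NLS t6, 16600 to 17600 at NLS t48, 8240 to 8380 at LacZ t0 and 7170 to 7550 at LacZ t48. Summed leukocyte, endothelial and keratinocyte markers stayed at 14.6 CPM or less in every library. Muscle markers summed to 4.83 to 18.6 CPM in NLS and 34.0 to 42.3 CPM in LacZ libraries. The part of these marker differences in the results below was not tested, and in such bulk RNA fewer cells of a type and less RNA per cell cannot be told apart.

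Complexes I to IV pass electrons from NADH and succinate to oxygen. Complexes I, III and IV pump protons across the inner mitochondrial membrane, and complex V, ATP synthase, lets them flow back to make ATP. A few subunits of these complexes are encoded in mitochondrial DNA, while all of complex II and most subunits of the others come from nuclear genes, whose promoters are known targets of NRF1, GABP and other ETS-family factors, YY1 and the estrogen-related receptors. Cyclic AMP acts on nuclear genes mainly through CREB, which binds the cyclic AMP response element (CRE).

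Promoters of some genes named in the results are shown first, because the study concerns a cyclic AMP source. All windows shown hold letters that the factors above are known to bind. Those of Sdha, Ndufa1, Cox7a2l, Ndufa4 and Cox5b, which also recur in the results, hold no match and are not shown. The windows shown therefore do not stand for the recurring genes in general. Each is 300 bases (250 before to 50 after the RefSeq start, build GRCm38.p6), written 5′ to 3′ in the direction of the gene, with capitals marking a match, on either strand, to one of the motifs listed after the sequences. Atp5g2 encodes an ATP synthase c subunit (chr15:102670998-102671297, minus strand), Atp5e the epsilon subunit (chr2:174464052-174464351, minus), Cox8a a small subunit of cytochrome c oxidase (chr19:7217567-7217866, minus), Sdhd a membrane anchor of succinate dehydrogenase (chr9:50603800-50604099, minus), Uqcrfs1 the Rieske iron-sulfur protein of complex III (chr13:30545267-30545566, minus) and Ndufb2 an accessory subunit of complex I (chr6:39592315-39592614, plus).
Atp5g2: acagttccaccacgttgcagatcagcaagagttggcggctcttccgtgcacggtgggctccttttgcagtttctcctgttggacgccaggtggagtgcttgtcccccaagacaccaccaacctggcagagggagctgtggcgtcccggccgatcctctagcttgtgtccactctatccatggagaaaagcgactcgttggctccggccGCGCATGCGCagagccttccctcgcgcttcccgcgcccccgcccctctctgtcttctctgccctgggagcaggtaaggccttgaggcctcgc
Atp5e: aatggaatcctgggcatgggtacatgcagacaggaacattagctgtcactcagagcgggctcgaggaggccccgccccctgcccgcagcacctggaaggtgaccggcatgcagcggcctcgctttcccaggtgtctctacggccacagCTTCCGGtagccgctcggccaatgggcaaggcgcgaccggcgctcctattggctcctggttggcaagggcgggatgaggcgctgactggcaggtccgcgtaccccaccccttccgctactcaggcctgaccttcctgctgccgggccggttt
Cox8a: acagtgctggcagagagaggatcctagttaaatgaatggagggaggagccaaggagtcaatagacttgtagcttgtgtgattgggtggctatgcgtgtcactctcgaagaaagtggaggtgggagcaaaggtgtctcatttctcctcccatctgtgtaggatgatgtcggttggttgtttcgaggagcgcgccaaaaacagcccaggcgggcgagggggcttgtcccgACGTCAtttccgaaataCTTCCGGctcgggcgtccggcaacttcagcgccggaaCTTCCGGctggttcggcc
Sdhd: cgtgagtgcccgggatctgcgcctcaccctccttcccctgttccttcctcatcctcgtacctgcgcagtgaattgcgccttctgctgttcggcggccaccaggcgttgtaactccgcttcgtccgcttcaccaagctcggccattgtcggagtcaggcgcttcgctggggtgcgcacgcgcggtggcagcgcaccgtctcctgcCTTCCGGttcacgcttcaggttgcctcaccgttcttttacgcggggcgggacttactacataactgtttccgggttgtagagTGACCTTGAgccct
Uqcrfs1: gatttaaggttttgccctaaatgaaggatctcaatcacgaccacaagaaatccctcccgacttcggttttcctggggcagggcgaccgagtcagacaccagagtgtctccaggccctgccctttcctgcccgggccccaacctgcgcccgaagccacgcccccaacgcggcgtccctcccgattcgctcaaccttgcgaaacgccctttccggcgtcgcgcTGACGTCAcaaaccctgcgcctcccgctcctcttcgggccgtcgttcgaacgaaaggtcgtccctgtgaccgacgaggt
Ndufb2: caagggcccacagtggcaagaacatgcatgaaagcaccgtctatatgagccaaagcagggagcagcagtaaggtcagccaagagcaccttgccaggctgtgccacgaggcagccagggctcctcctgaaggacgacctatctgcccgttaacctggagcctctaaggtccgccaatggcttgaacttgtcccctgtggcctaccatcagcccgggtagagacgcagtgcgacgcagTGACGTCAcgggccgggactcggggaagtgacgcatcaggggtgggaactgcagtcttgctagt
In the gene annotation of the same genome (GRCm38), the Sdhd gene spans chr9:50596357-50603812, Atp5e spans chr2:174461072-174464105, Cox8a spans chr19:7215153-7217616 and Uqcrfs1 spans chr13:30540308-30545362, all on the minus strand, so these windows lie over their 5′ ends. The annotated Atp5g2 gene (chr15:102662864-102672352) starts further upstream, so its window lies inside the annotated gene.

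RefSeq promoters were matched for 67 of the 85 symbols (72 windows) and compared with all 32851 windows, both strands being searched. The NRF1 motif GCATGCGC was in 13.9% of the member windows and 2.71% of all windows, and at Atp5g2 its matches on the 2 strands overlap. The ETS motif CCGGAAG was in 22.2% against 8.86%, and the YY1 motif AAGATGGC in 12.5% against 2.75%. The estrogen-related receptor motif TCAAGGTCA was in 2.78% against 0.423%, at Sdhd and Atp5g3. The full CRE TGACGTCA was in 5.56% against 1.79%, at Ndufa10, Ndufa11, Ndufb2 and Uqcrfs1, and the shorter TGACGT, which the full CRE contains, in 12.5% against 7.51%. Member windows had a median of 19 CpG dinucleotides against 7 in all windows, and a median GC content of 57.33% against 52.67%, whose part in these shares was not tested. The matches describe letters and carry no test.

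Member mRNAs were short and abundant. Their median effective length, the transcript length corrected for fragment size, was 531 bases against 2110 over all genes tested, and their median level was 193 TPM (transcript level corrected for length and depth) against 18.8. They varied little between libraries: the range of log2 CPM over the 13 libraries had a median of 0.54 against 0.74 for all genes tested, 20 members ranged by under 0.4, and 9 ranged by more than 1. Ndufa10 (range 0.17) and Cox7b (0.20) were nearly flat, and Ndufa2 ranged by 2.50. On the per-length scale, averaged over the 13 libraries, the highest and lowest members were Ndufb9 (526 TPM) and Ndufb4 (30.1 TPM) in complex I, Cyc1 (651 TPM) and Uqcrfs1 (85.1 TPM) in complex III, and Atp5b (1280 TPM) and Atp5s (9.49 TPM) in complex V. In complex II, Sdhc stood at 185 TPM, Sdhb at 182 TPM, Sdhd at 123 TPM and Sdha at 98.5 TPM. Some of these levels rest on transcripts that are not annotated as coding: these took 88.1% of the reads of Cyc1, 65.5% of those of Ndufa10 and 64.7% of those of Atp5f1.

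The tissue isoforms of cytochrome c oxidase were those of non-muscle cells. Cox6a1, Cox4i1, Cox7a2 and Cox8a stood at 552, 402, 235 and 649 TPM, while the heart and muscle forms Cox6a2 and Cox7a1 stood at 4.97 and 3.84 TPM, the lung-enriched Cox4i2 at 0.228 TPM, and the muscle Cox8b and the testis forms Cox6b2, Cox7b2 and Cox8c had no read. The partners Cox6b1, Cox7b and Cox7a2l, the last a factor in the assembly of respiratory supercomplexes, stood at 638, 349 and 202 TPM. Of the 3 genes that encode the same mature c-ring protein of ATP synthase, Atp5g1 (488 TPM) and Atp5g3 (429 TPM) exceeded Atp5g2 (154 TPM). Ndufa4 stood at 373 TPM. Its paralog Ndufa4l2, known as a hypoxia-induced gene and no member here, had 81.8, 63.6 and 89.6 CPM at NLS t0 in lines 6, 7 and 16, only 8.75, 7.02 and 8.71 CPM at t6, and 75.8, 74.2 and 84.1 CPM at t48, with 0.256 to 1.98 CPM in LacZ libraries. Its log2 fold change from t0 to t6 was −3.26 (adjusted p = 2.92e-08), while Ndufa4 itself moved by −0.29 (below).

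The NLS libraries at t6 carried less ATP synthase mRNA than those at t0. The LacZ lines have no t6 library, so construct, doxycycline and time cannot be told apart in any comparison with t6. Summed over the 18 complex V genes, lines 6, 7 and 16 had 4372, 4091 and 4150 CPM at t0, 3688, 3680 and 3662 CPM at t6, and 3895, 3684 and 3856 CPM at t48. All 3 t6 sums were below all 3 t0 sums, and the t6 sum was 0.844, 0.899 and 0.882 of the t0 sum of the same line. Of the 17 complex V genes tested, 8 fell (47.1%, beside 9.23% of all genes tested) and none rose (beside 11.6%). A log2 fold change below 0 was found for 16 (94.1%, beside 50.6% of all genes), with a median of −0.22. No complex V gene rose with DESeq2 (0 rose, 9 fell) or at an unadjusted p under 0.05 either (0 rose, 11 below). The count depended on the lines: 2 fell without line 6, 4 without line 16 and 7 without line 7, with medians still negative (−0.19 without line 6).

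**Figure D1:**
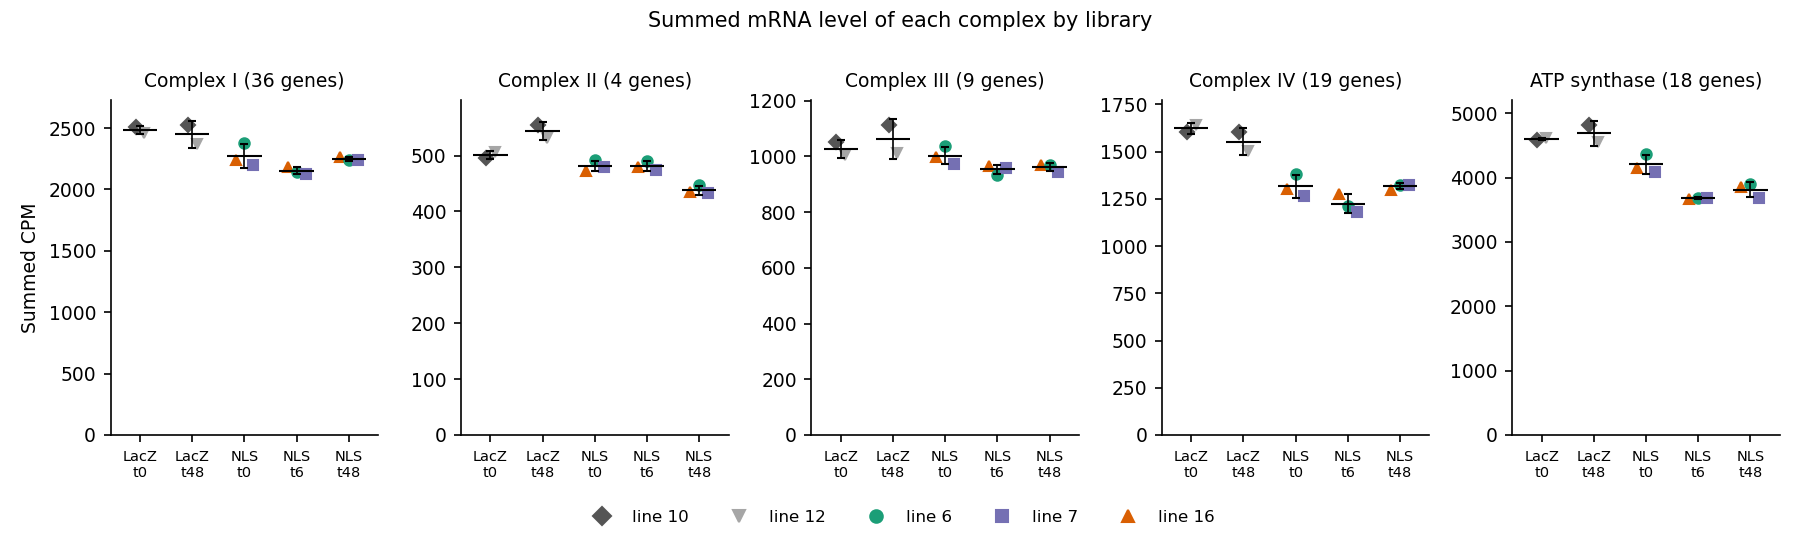
Summed CPM of the nuclear genes of each complex (y axis, from 0) in each library (points), by group, with the group mean (line) and SD (bars). For complex V the NLS t6 libraries (3662 to 3688 CPM) lie below the NLS t0 libraries (4091 to 4372 CPM), and for complex II the NLS t48 libraries (432.4 to 447.2 CPM) lie below those of all other groups.

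In the catalytic head, Atp5b, the beta subunit and the most abundant member, had 1690, 1550 and 1610 CPM at t0 in lines 6, 7 and 16 and 1390, 1350 and 1330 CPM at t6. The groups did not overlap, and the log2 fold change was −0.25 (SE 0.05, adjusted p = 0.00302). Atp5a1, the alpha subunit, had 733, 710 and 714 CPM at t0 and 632, 662 and 643 CPM at t6 (log2 fold change −0.16), again without overlap, though its call was lost in 10 of 18 alternative settings. In the central stalk, Atp5e had 45.5, 37.8 and 41.4 CPM at t0 and 32.2, 27.3 and 33.5 CPM at t6, and returned to 39.5, 37.9 and 45.3 CPM at t48. Every t6 library was below every t0 and t48 library (t6 against t0 −0.42, SE 0.09, adjusted p = 0.00651). In the c-ring, Atp5g2 had 63.5, 87.3 and 68.8 CPM at t0 and 43.3, 55.8 and 48.8 CPM at t6, with no overlap (−0.57, SE 0.14, adjusted p = 0.0125). Summed with Atp5g1 and Atp5g3, the c-ring genes came to 405 ± 18 CPM (SD, n = 3) at t0, 332 ± 12.2 at t6 and 377 ± 3.29 at t48. Atp5mpl, the small membrane proteolipid, had 54.5, 50.8 and 49.4 CPM at t0 and 44.8, 41.5 and 39.0 CPM at t6 (−0.30, SE 0.07, adjusted p = 0.00635). Atp5b, Atp5mpl and, in complex IV, Cox8a kept their calls in all 18 alternative settings. Atp5e, Atp5g2 and Ndufa4 lost theirs only without line 6 (adjusted p = 0.083, 0.0594 and 0.0746).

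**Figure D2:**
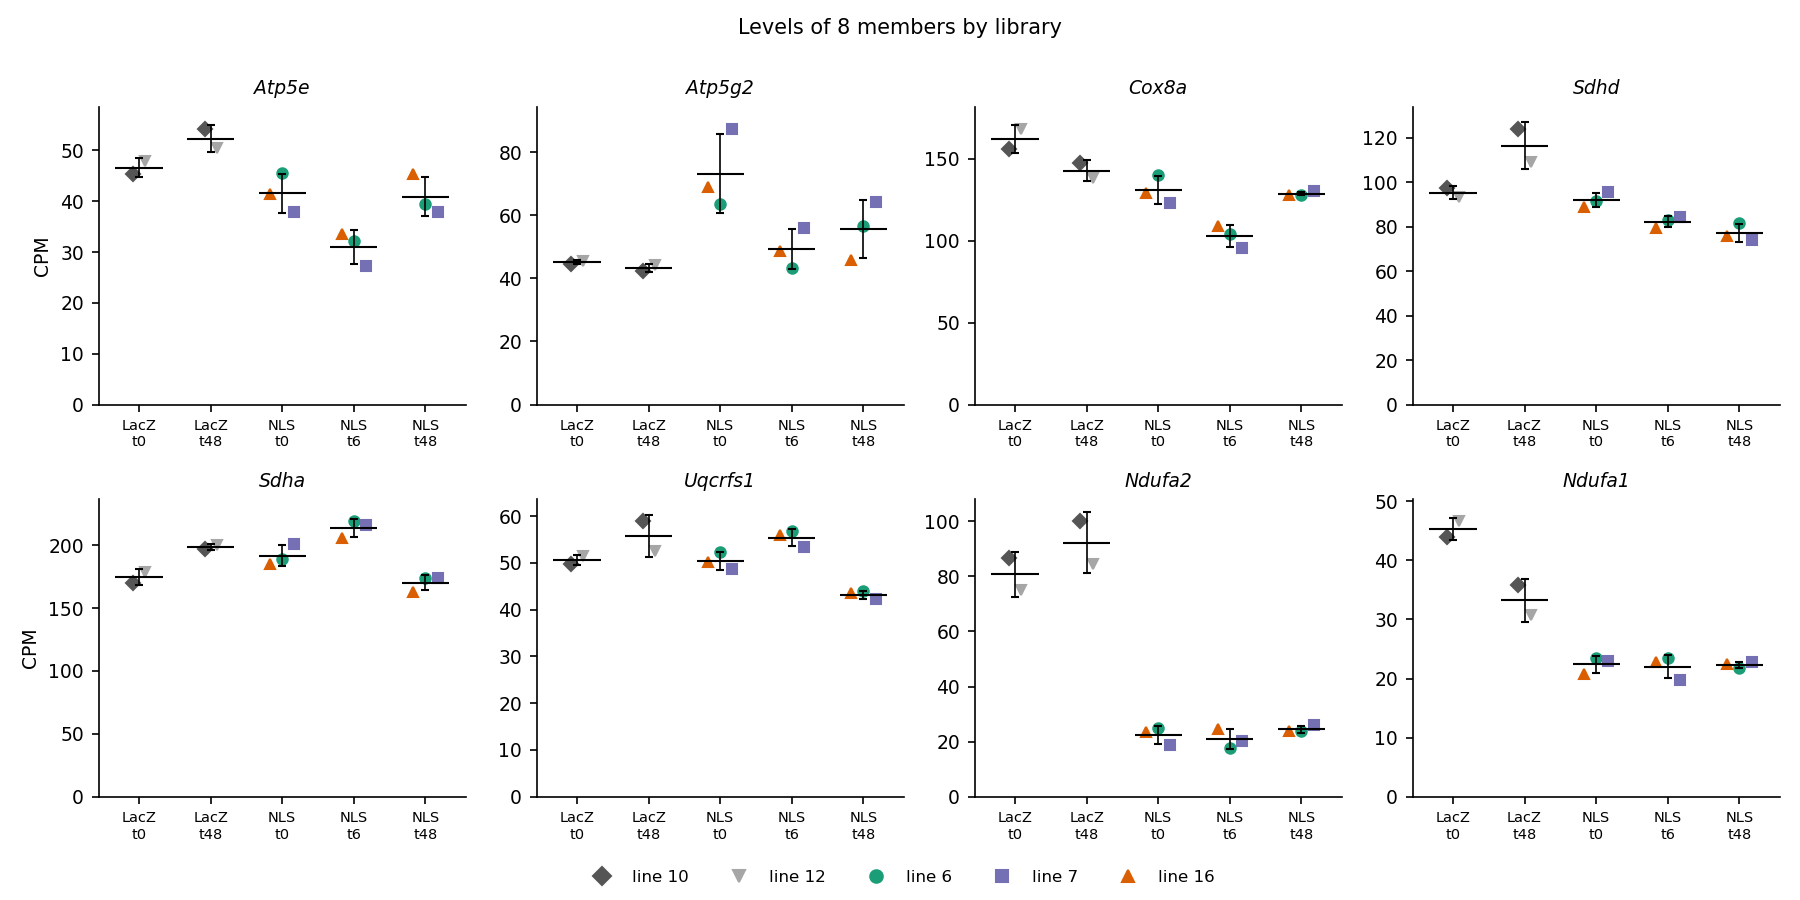
CPM of 8 members (y axis) in each library (points), by group, with the group mean and SD. Atp5e, Atp5g2 and Cox8a are lower in all NLS t6 than in all NLS t0 libraries, Sdhd and Uqcrfs1 have their lowest mean at NLS t48, and Ndufa2 and Ndufa1 are higher in every LacZ than in every NLS library.

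Over all complexes, 23 of the 80 members tested (28.8%) were called between NLS t6 and NLS t0, beside 20.8% of all genes tested. They were 5 that rose (6.25%, beside 11.6% of all genes) and 18 that fell (22.5%, beside 9.23%), and the median log2 fold change of members was −0.13. A value below 0 was found for 81.2% of members and 50.6% of all genes tested. With the cell line as a block, 7 rose and 31 fell, beside 18.7% and 16.0% of all genes (34.7% called). In the NLS libraries at t6 and t0, the lowest and highest values did not overlap for 28 members that were lower and 6 that were higher (16.5% and 17.9% of all genes tested). Without line 6, only 4 members were called, all lower, and without line 16, 11 were. The count was 8 and 15 without the t0 library of line 6 or line 16, and 14 and 10 without the t6 library of line 6 or line 7. Fragment size, read as transcript length minus effective length, was 175 to 176 bases in the NLS libraries at t0. At t6 it spread more widely, on both sides of those values (166 to 179). When the trend with effective length was removed from each library, 6 rose and 14 fell and the median was −0.08, while the 8 complex V calls stayed 8 with a median of −0.17.

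In complex I, 2 of 36 genes rose (5.56%, beside 11.6% of all genes tested) and 3 fell (8.33%, beside 9.23%) from t0 to t6. Neither share exceeded that of all genes. Ndufs3, a core subunit of the matrix arm, fell from 63.9, 55.9 and 61.7 CPM in lines 6, 7 and 16 to 52.4, 47.7 and 48 CPM (−0.29, SE 0.07, adjusted p = 0.0103), and was back at 64.7, 56.5 and 62.6 CPM at t48. Its t6 values lay below all t0 and t48 values. Ndufb2, whose promoter holds a full CRE, fell from 16.2, 15.5 and 15.2 CPM to 13.4, 12.8 and 11.7 CPM (−0.31, adjusted p = 0.0156), and Ndufv3 fell by 0.30 on the log2 scale (adjusted p = 0.0121). The other 3 genes with a full CRE did not pass the test at t6. Ndufab1, the mitochondrial acyl carrier protein that is also a complex I subunit, rose from 42.7 ± 5.27 CPM (SD, n = 3) to 53.2 ± 4.43 CPM (SD, n = 3; +0.32, SE 0.09, adjusted p = 0.0297), with all t6 values above all t0 values. Ndufs6, a zinc-binding accessory subunit, rose from 25.3, 24.6 and 26.9 CPM to 31.1, 30.1 and 30.0 CPM, without overlap (+0.25, adjusted p = 0.0181). Ndufs3, Ndufb2 and Ndufab1 lost their calls without line 16 (adjusted p = 0.0987, 0.0933 and 0.16), and Ndufs6 and Ndufv3 without line 6 (0.174 and 0.122).

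Complexes II to IV moved less evenly. Sdha, the flavoprotein of succinate dehydrogenase, was the only complex II gene called at t6 and rose (+0.16, adjusted p = 0.0376, lost without line 6 at 0.285). In complex III, 2 of 9 genes rose and 3 fell (22.2% and 33.3%, beside 11.6% and 9.23% of all genes tested). The core protein gene Uqcrc2 went from 159, 163 and 158 CPM to 184, 190 and 171 CPM (+0.18, adjusted p = 0.0173) and Uqcrb rose by +0.21. Cyc1 (cytochrome c1), Uqcr10 and the hinge protein gene Uqcrh changed by −0.20, −0.25 and −0.24. The calls of Uqcrc2, Uqcrb, Cyc1 and Uqcr10 were lost without line 6 (adjusted p = 0.17, 0.246, 0.306 and 0.387) and that of Uqcrh without line 7 or line 16 (0.119 and 0.106). On coding transcripts alone, which took few of its reads, Cyc1 went the other way, with a mean of 23.7 CPM (15.6 to 31.9) at t0 and 27.2 CPM (13.8 to 41.1) at t6, with overlap and without a test. In complex IV, none of 14 genes rose and 4 fell (28.6%, beside 9.23% of all genes), with a median of −0.16. Cox8a had 140, 123 and 129 CPM at t0, 104, 95.7 and 109 CPM at t6, and 128, 130 and 128 CPM at t48. Its t6 libraries were below all other NLS libraries, and it had the smallest adjusted p of the members at t6 (−0.34, SE 0.06, adjusted p = 0.00185). Ndufa4 went from 102, 110 and 96.4 CPM to 83.4, 84.6 and 84.3 CPM, without overlap (−0.29, SE 0.06, adjusted p = 0.00595). Cox5a and Cox7a2 changed by −0.18 and −0.22, a call lost without line 6 for Cox5a (adjusted p = 0.241) and without line 16 for Cox7a2 (0.147).

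**Figure D3:**
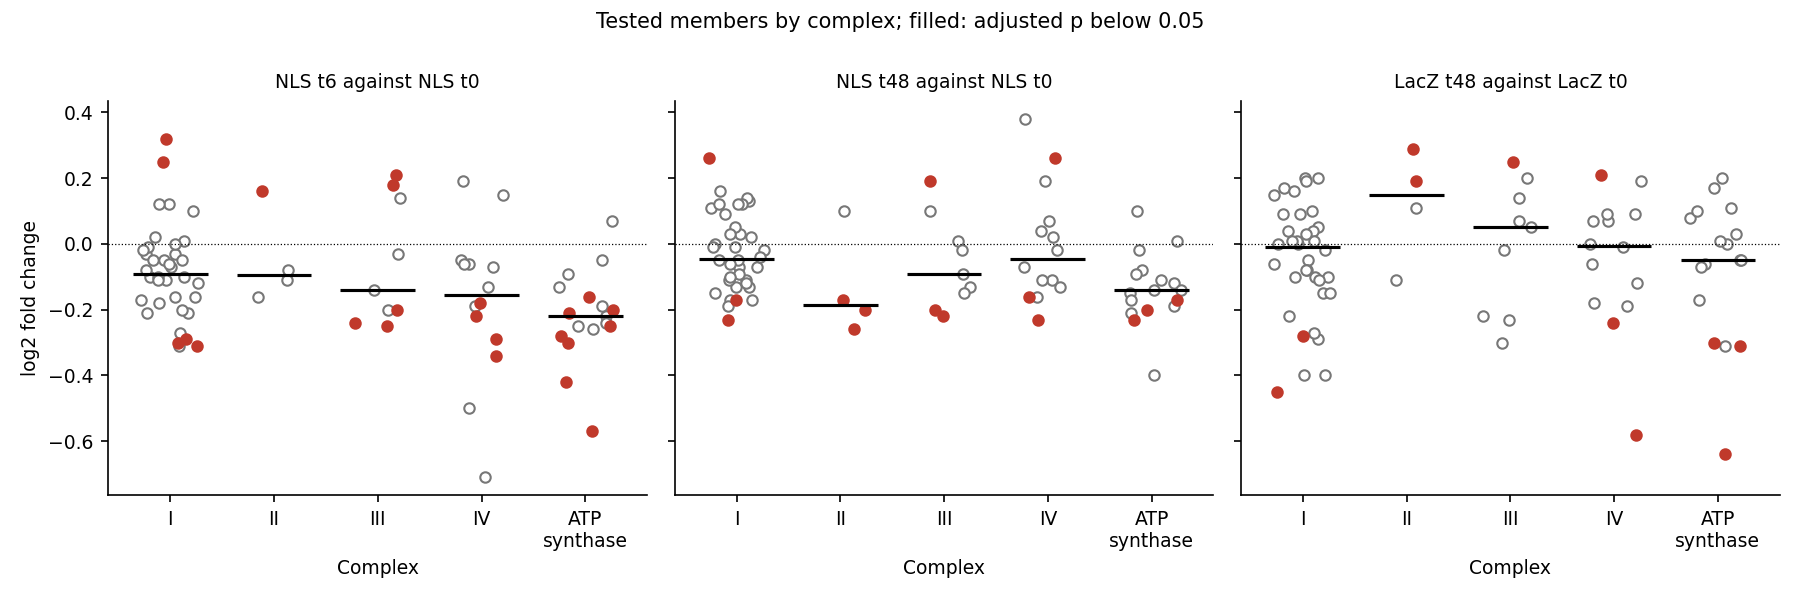
Log2 fold change of each tested member (points), by complex, for the t6 and t48 changes of NLS libraries and the t48 change of LacZ libraries, each from t0. Filled red points have an adjusted p under 0.05 and black bars are medians; the complex V median is −0.22 in the first comparison and −0.14 in the second.

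Between t0 and t48 in NLS libraries, 3 of the 4 succinate dehydrogenase genes fell and none rose, beside 11.3% and 14.8% of all genes tested. The summed level of its 4 genes was 491.4, 480.2 and 472.1 CPM at t0 in lines 6, 7 and 16, 490.8, 473.7 and 479.3 CPM at t6, and 447.2, 432.4 and 434.3 CPM at t48. The t48 sums lay below all others, at 0.91, 0.90 and 0.92 of the t0 sum of the same line. Sdhd, one of its 2 membrane anchors, had 91.8, 95.6 and 89.1 CPM at t0, 83.2, 84.4 and 79.5 CPM at t6 and 81.7, 74.0 and 75.8 CPM at t48 (t48 against t0 −0.26, SE 0.06, adjusted p = 0.00731, lost without line 7 at 0.0705). The t0 values were above all later ones. Sdha had 189, 201 and 185 CPM at t0, rose to 219, 216 and 206 CPM at t6 and went to 174, 174 and 163 CPM at t48. These 3 sets did not overlap, with changes of −0.17 from t0 (adjusted p = 0.0239) and −0.33 from t6 (adjusted p = 0.000296). Sdhb, the iron-sulfur subunit, had 115, 99.7 and 110 CPM at t0 and 93.6, 90.6 and 100 CPM at t48 (−0.20, adjusted p = 0.0349), with overlap. Sdhc, the other anchor, went the other way without passing the test (95.3, 84.4 and 87.6 CPM to 98.2, 94.2 and 94.7 CPM, +0.10, adjusted p = 0.305). The count of 3 of 4 that fell held with DESeq2 and with the length trend removed, but was 1 without any one of the 3 lines.

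In all, 15 members were called between t48 and t0, beside 26.1% of all genes tested, so their share was below the background. Of these, 3 rose (beside 14.8% of all genes) and 12 fell (beside 11.3%), with a median of −0.08. On per-length TPM values with limma 5 rose and 8 fell, and with the length trend removed 5 rose and 7 fell. With the line as a block 29 were called and 22 of them fell, beside 39.8% and 18.8% of all genes. Without line 6 only 3 members were called, without line 16 only 5, without line 7 only 7 and without the t48 library of line 16 only 8. In complex V, 3 of 17 fell (median −0.14), among them Atp5a1, at 630, 587 and 620 CPM in lines 6, 7 and 16 against 733, 710 and 714 CPM at t0 (−0.23, SE 0.05, adjusted p = 0.00326). Its call held in all 18 alternative settings. Ndufv1, which carries the NADH-binding site of complex I, had 80.7, 77.5 and 80.9 CPM at t0 and 68.0, 65.4 and 70.5 CPM at t48, without overlap (−0.23, SE 0.05, adjusted p = 0.00588, lost without line 6 at 0.0799). Among the genes that rose, Cox5b had 122, 105 and 115 CPM at t0 and 140, 137 and 131 CPM at t48 (+0.26, adjusted p = 0.0154), Uqcrc2 changed by +0.19 (adjusted p = 0.0105) and Ndufc2 by +0.26 (adjusted p = 0.0393), with overlap only for Ndufc2. Cox5b and Uqcrc2 lost their calls without line 6 (adjusted p = 0.0667 and 0.123) and Ndufc2 without line 16 (0.261).

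The Rieske gene Uqcrfs1 was high at t6 and low at t48, the order seen for Sdha. It had 52.4, 48.7 and 50.1 CPM at t0 in lines 6, 7 and 16, 56.8, 53.5 and 56.0 CPM at t6 and 43.9, 42.2 and 43.5 CPM at t48. The t48 values were below all others (t48 against t6 −0.36, adjusted p = 0.000507; t48 against t0 −0.22, adjusted p = 0.0135, the latter lost without line 6 at 0.117 and without line 16 at 0.0712). Between t48 and t6, 10 members were higher at t48 and 5 lower, beside 28.2% of all genes called (14.6% higher, 13.6% lower). With the line as a block the counts were 17 and 8, beside 20.6% in each direction (41.2% called). The higher ones included Atp5e (+0.40), Cox8a (+0.32, adjusted p = 0.00174), Ndufs3 (+0.31), Cox5b (+0.31) and Sdhc (+0.21), and the lower ones Sdha, Uqcrfs1, Ndufs6 (−0.30), Cox7c (−0.30) and Uqcrb (−0.24). This comparison shares its t6 libraries with that of t6 and t0, so a gene low at t6 appears in both. The count was 8 without line 6. Cox7c lost its call without any one line (highest adjusted p = 0.258, without line 7), Sdhc without line 6 or line 7 (0.13 and 0.125) and without the t6 library of line 7 (0.161), Uqcrb and Cox5b without line 6 (0.0727 and 0.0551), and Ndufs3 without line 16 (0.0633).

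In LacZ libraries, 11 members were called between t48 and t0, beside 18.5% of all genes tested: 4 rose (beside 8.68%) and 7 fell (8.75% of members, beside 9.87%), with a median of 0. On library totals without TMM scaling none rose and 13 fell, and on TPM values 2 rose and 13 fell. With the line as a block 7 rose and 15 fell, beside 16.5% in each direction (33.0% called), and with any single LacZ library or line left out 0 to 5 members were called (0 without line 12, 1 without line 10, and 5 without the t48 library of line 10). Sdhd had 97.4 and 93.4 CPM at t0 in lines 10 and 12 and 124 and 109 CPM at t48, without overlap (+0.29, SE 0.07, adjusted p = 0.0163, lost without line 10 at 0.242). Sdha had 170 and 179 CPM at t0 and 197 and 200 CPM at t48 (+0.19, adjusted p = 0.0486). These 2 were the complex II calls, and neither remained without either line or on library totals. Cox6a1 had 170 and 151 CPM at t0 and 118 and 97.5 CPM at t48 (−0.58, SE 0.13, adjusted p = 0.00922), though 22.4% of its reads came from transcripts not annotated as coding. On coding transcripts alone the means were 146 and 75.1 CPM. Ndufa1, needed early in complex I assembly, had 44.0 and 46.6 CPM at t0 and 35.8 and 30.7 CPM at t48 (−0.45, SE 0.10, adjusted p = 0.00808), and Atp5s, ATP synthase coupling factor B, changed by −0.64 (SE 0.18, adjusted p = 0.0259). All 3 lost their calls without a LacZ line (adjusted p = 0.122, 0.266 and 0.316).

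The t48 responses of NLS and LacZ were compared directly, as the difference of the 2 log2 fold changes. It was called for 12 members, 3 higher and 9 lower in NLS, beside 23.3% of all genes tested (12.1% higher, 11.2% lower), and the median was −0.02. On library totals 5 were higher and 5 lower, and on TPM values 8 and 5, where the median of all genes was itself shifted by 0.12. With the line as a block 7 were higher and 16 lower, beside 18.9% and 18.5% (37.4% called). Without LacZ line 10 only 2 were called, and 5 without LacZ line 12, without NLS line 6, or without the LacZ t0 or t48 library of line 10. The counts were 7 without NLS line 16 and without the LacZ t0 library of line 12. Sdhd, which fell in NLS and rose in LacZ, had the clearest difference (−0.55, SE 0.10, adjusted p = 0.00129), called in all 24 alternative settings. All 4 complex II genes had a difference below 0 (median −0.22), and Sdha was the other one called (−0.36, adjusted p = 0.00581), though not on TPM values (adjusted p = 0.141) or without LacZ line 10 (0.0632). Cox7a2l had 126, 126 and 127 CPM at t0 and 116, 112 and 112 CPM at t48 in NLS lines 6, 7 and 16, against 149 and 159 CPM and then 179 and 177 CPM in LacZ lines 10 and 12. Its difference was −0.36 (SE 0.07, adjusted p = 0.00333), lost without LacZ line 10 (0.0585). Uqcrfs1 had a difference of −0.36 (adjusted p = 0.0137), also lost without that line (0.172).

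NLS lines had lower levels of many members than LacZ lines at either time. Because construct and line are the same factor here, they cannot be told apart in these comparisons, and lines 6, 7 and 16 are set against lines 10 and 12. At t0, 33 of 80 members were called, beside 43.5% of all genes tested: 4 were higher in NLS (beside 21.1%) and 29 lower (36.2% of members, beside 22.4%), with a median of −0.14. At t48, 38 were called, beside 45.1%: 3 higher (beside 23.0%) and 35 lower (43.8% of members, beside 22.2%), with a median of −0.16. On TPM values the t48 split was 11 higher and 27 lower, with the median of all genes shifted by 0.11. Between 23 and 33 members were called at t0, and 24 to 40 at t48, when single libraries or lines were left out, the lowest at t48 without LacZ line 10 (24) and without its t48 library (25). Fragment size differed along with construct at t0 (transcript length minus effective length 175 to 176 bases in NLS, 160 to 167 in LacZ). Removing the trend with length gave 6 higher and 26 lower with a median of −0.05 at t0, and 4 higher and 29 lower with a median of −0.07 at t48.

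By complex, the lower calls at t0 were 13 of 36 in complex I, 1 of 4 in II, 3 of 9 in III, 6 of 14 in IV and 6 of 17 in V. At t48 they were 13, 3, 5, 5 and 9. Of all genes tested, 22.4% were lower at t0 and 22.2% at t48. The summed complex IV level was 1316 ± 60.9 CPM in NLS (SD, n = 3) and 1624 ± 27.4 CPM in LacZ (SD, n = 2) at t0, a ratio of 0.811. For complexes I, II, III and V the t0 ratio of the means was 0.915, 0.961, 0.977 and 0.914. At t48 complex II (0.805) and complex V (0.813) had the lowest ratios, and complexes I, III and IV stood at 0.918, 0.904 and 0.848. These sums are TMM-scaled and their ratios depend on the scaling. As a share of all reads, the members took 1.02 to 1.03% in LacZ at t0 and 0.964 to 1.01% at t48. In NLS they took 0.915 to 0.97% at t0 and 0.87 to 0.89% at t48.

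Ndufa2, an accessory subunit of the complex I matrix arm, differed most. It had 25.0, 18.9 and 23.6 CPM at t0 and 23.8, 26.0 and 23.9 CPM at t48 in lines 6, 7 and 16, against 86.6 and 74.9 CPM and then 100 and 84.5 CPM in LacZ lines 10 and 12. The groups were far apart at both times, and the differences were −1.84 at t0 (SE 0.14, adjusted p = 3.34e-07) and −1.91 at t48 (SE 0.14, adjusted p = 1.79e-07), called in all 17 alternative settings at each time. Ndufa1 had 20.8 to 23.4 CPM at NLS t0 and 44.0 and 46.6 CPM at LacZ t0 (−1.02, SE 0.09, adjusted p = 1.07e-06), and −0.57 at t48 (adjusted p = 0.000205). Uqcr11, a small complex III subunit, had 39.5 to 43.0 CPM against 83.0 and 67.3 CPM at t0 (−0.88, SE 0.18, adjusted p = 0.00193) and −0.65 at t48, and Ndufb7, an intermembrane-space subunit, 21.5 to 24.4 CPM against 47.8 and 36.4 CPM at t0 (−0.89, adjusted p = 0.000527). At t48 the call of Uqcr11 was lost in 3 of 17 alternative settings, all with a library or line left out. The call of Ndufb7 at t48 held in only 7 of 17 and was lost in 10. For both, LacZ line 10 was among the libraries whose removal lost the call. Cox4i1, the regulatory ATP-binding subunit of complex IV, had 133 to 159 CPM at NLS t0 against 225 and 218 CPM (−0.61, adjusted p = 3.39e-05), and −0.52 at t48 (adjusted p = 0.00011).

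Some differences were found at one time label and not at the other. Sdhd differed by −0.05 at t0 (adjusted p = 0.595) and −0.60 at t48 (adjusted p = 8.41e-06). Cox6a1 differed by −0.62 at t0 (adjusted p = 0.00094) and −0.02 at t48 (adjusted p = 0.895). Both are among the genes whose t48 responses differed, which is the test of this change. Atp5a1 was lower at both times (−0.42, adjusted p = 3.13e-05, and −0.65, adjusted p = 3.87e-07), as was Cox7a2l (−0.29, and −0.65 with adjusted p = 2.57e-07). Among the few that were higher in NLS, Atp5g2 had 63.5, 87.3 and 68.8 CPM against 44.6 and 45.5 CPM in LacZ at t0 (+0.70, SE 0.16, adjusted p = 0.00365), and +0.37 at t48 without passing the test (adjusted p = 0.079). Ndufs4 and Ndufb9 were also higher at t0 (+0.38 and +0.32), and Uqcrc2 at t48 (+0.25). Ndufs1 was higher at t48 (+0.22), a call lost without LacZ line 10 (adjusted p = 0.0782) or its t48 library (0.0899). Cyc1 was higher at t0 over all of its transcripts (+0.28, adjusted p = 0.00517, lost without LacZ line 12 at 0.0662 and without its t0 library at 0.0676). On coding transcripts alone the direction of Cyc1 reversed, with a mean of 23.7 CPM (15.6 to 31.9) in NLS and 72.8 CPM (44.6 to 101) in LacZ at t0, without overlap and without a test (log2 ratio of the means −1.62).

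**Figure D4:**
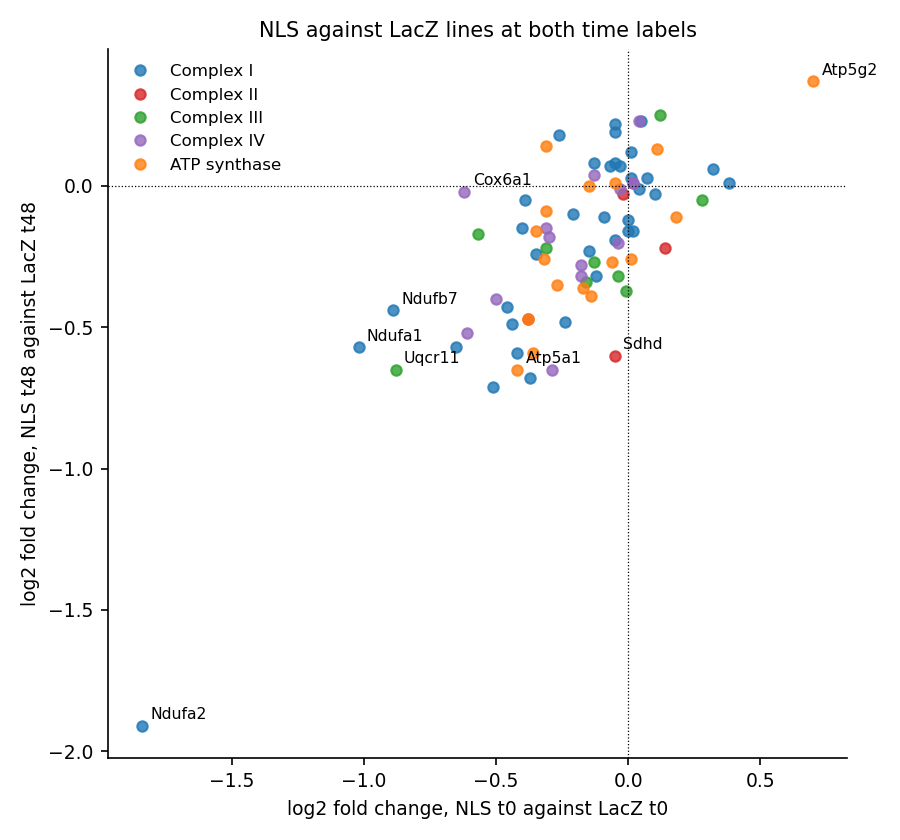
Log2 fold change of each tested member between NLS and LacZ libraries at t0 (x axis) and at t48 (y axis), coloured by complex. The 2 axes come from separate libraries of the same lines; Ndufa2 lies at −1.84 and −1.91, and Sdhd at −0.05 and −0.60.

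Lines of one construct differed less. With time in the fit, 10 members differed between NLS lines 7 and 16 (5 higher and 5 lower in line 7, beside 22.6% of all genes tested, 11.8% higher and 10.8% lower; 5 and 3 on library totals), and 7 between lines 7 and 6 (1 higher and 6 lower, beside 11.1%, 5.9% higher and 5.19% lower; 3 and 6 on library totals). Between lines 6 and 16 no member was called by edgeR, DESeq2 or limma (9 with an unadjusted p under 0.05 in edgeR, 6 higher and 3 lower in line 6, beside 2.26% of all genes called), and leaving out the t0 library of line 6 gave 4. Between LacZ lines 12 and 10 none was called by edgeR, DESeq2 or limma either (2 higher and 13 lower at an unadjusted p under 0.05, beside 0.123% of all genes called). For lines 7 and 16 the count was 6, 3 and 6 without the t0, t48 or t6 library of line 16, and 4 and 6 without the t0 or t6 library of line 7. For lines 7 and 6 it was 2 and 3 without the t0 or t48 library of line 6, and 3 without the t0 library of line 7. The c-ring genes differed in opposite directions: in line 7 Atp5g2 was higher than in line 16 (+0.34, adjusted p = 0.00493) and line 6 (+0.33, adjusted p = 0.0101), and Atp5g1 lower (−0.25, adjusted p = 0.00328, and −0.24). Against line 6, both calls were lost without the t0 library of line 6 (0.0775 for Atp5g2 and 0.0882 for Atp5g1), without that of line 7 (0.0862 and 0.0923) and on TPM values with limma (0.0788 and 0.0591). A fit without time made none of the 4 calls (0.52 to 1). Line 16, with almost no reads of the mouse Adcy10 gene, had a complex V t6 sum of 0.882 of its t0 sum, between those of lines 6 and 7. Whether this change depends on sAC was not tested.

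Other mitochondrial genes give the setting, as fixed lists described by counts. From t0 to t6 in NLS, 11.6% of all genes tested rose and 9.23% fell. Of 46 assembly factor genes 2 rose and 9 fell (19.6%, median −0.13). None of 17 carrier and partner genes rose and 3 fell (17.6%, median −0.07). None of 13 citric acid cycle genes rose and 2 fell (15.4%, median −0.09). Of 78 mitochondrial ribosomal protein genes 6 rose and 7 fell (8.97%, median −0.05), and of 94 cytosolic ribosomal protein genes, which are also short and abundant, 4 rose and 27 fell (28.7%, median −0.14). Among 13 regulators of mitochondrial genes none was called (edgeR, with 1 higher and 1 lower at an unadjusted p under 0.05; median 0.05). Higd1a, a cytochrome c oxidase partner known to respond to hypoxia, changed by −0.72 (SE 0.08, adjusted p = 3.39e-05), and the complex III assembly gene Uqcc1 by −0.41. None of the 13 mRNAs encoded in mitochondrial DNA was called at t6, also at an unadjusted p under 0.05 (median −0.23). These mRNAs, which poly(A) selection captures unevenly, took 0.792 to 1.41% of reads over the libraries.

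From t0 to t48 in NLS, none of the citric acid cycle genes rose and 5 of 13 fell (38.5%, median −0.11), beside the 11.3% of all genes that fell. They were Idh3a (−0.28, adjusted p = 0.000747) and Suclg2 (−0.39, adjusted p = 0.00117), a subunit each of isocitrate dehydrogenase and succinyl-CoA ligase, Ogdh (−0.25) and Dlst (−0.18) of the oxoglutarate dehydrogenase complex, and citrate synthase, Cs (−0.20). The assembly factors of succinate dehydrogenase went both ways, Sdhaf1 by +0.42 and Sdhaf2 by −0.21. Of the other lists, 5 of 46 assembly factor genes rose and 5 fell, beside 14.8% of all genes that rose and 11.3% that fell. Of 17 carrier and partner genes 1 rose and 2 fell, and of 13 regulators 1 rose and 1 fell. Of 78 mitochondrial ribosomal protein genes 4 rose and 11 fell, and of 94 cytosolic ones 10 rose and 13 fell. Of 13 mitochondrially encoded mRNAs none rose and 2 fell. In LacZ over the same interval, 25 of 94 cytosolic ribosomal protein genes rose and 2 fell, and none of 13 citric acid cycle genes rose and 2 fell, beside 8.68% of all genes that rose and 9.87% that fell. Coa3, an assembly factor of complex IV, changed by −0.31 in NLS and +0.51 in LacZ (difference of the responses −0.82). Between NLS and LacZ at t0, 11 of 46 assembly factor genes were higher in NLS and 1 lower, and 26 of 78 mitochondrial ribosomal protein genes were higher and 3 lower, beside 21.1% and 22.4% of all genes. At t48 these counts were 8 and 6, and 17 and 15, beside 23.0% and 22.2%. Of 94 cytosolic ribosomal protein genes 21 were higher and 23 lower at t0, and 3 and 39 (41.5%, median −0.2) at t48. Of 13 citric acid cycle genes 4 were higher and 1 lower at t0, and 3 and 6 (46.2%) at t48. Of 17 carrier and partner genes 5 were higher and 4 lower at t0, and 3 and 6 (35.3%) at t48. Of 13 regulators 1 was higher and 4 lower at each time. So a raised share of lower genes at t48 was not particular to the members.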

How the data were processed

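Poly(A) RNA of 13 libraries was measured by paired-end sequencing (stranded kit, per the labels' protocols). The authors' estimated counts and TPM per transcript came from Salmon (version 1.2.0) with GRCm38 as the genome, both named in the submitters' processing notes. Whether strand was used, and how reads shared with near-identical copies were filtered, is not given in the sources used here, so members with processed pseudogenes are uncertain. The deposited estimated counts (and TPM) were summed by gene through GENCODE vM21 (115977 of 116546 transcripts, 99.5%) and rounded. CPM divides by the library total after TMM scaling, so CPM values and their sums are TMM-scaled. Groups came from sample titles.

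edgeR 4.0.16 quasi-likelihood tests (R 4.3.3, TMM, filterByExpr, Benjamini-Hochberg over 13044 genes, threshold 0.05) used 1 fit of all 13 libraries. Adjusted p values are from it. Lines were compared with group and line in the fit. Alternatives were limma 3.58.1 on log2(TPM + 0.5), DESeq2 1.42.0, other scalings and filters, a length-trend offset, the replicate block, and left-out libraries. Tests were also run on simulated data with independent libraries and few changed genes. That run cannot show how they perform on libraries that share a line. Tables used Python 3.11.15 and pandas 2.3.3.

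Same-numbered libraries are one cell line, which is where the pairing comes from. Deviations of the same NLS line correlated at 0.025 to 0.282 (9 pairs), those of different lines at −0.263 to 0.0524 (18 pairs), and those of the same LacZ line at −0.0201. The deviations are from the mean of each small group, so they cancel within it. This lowers the values of different lines by construction and makes the LacZ values mirror images. The correlations therefore cannot decide whether libraries of a line are paired. No pair of libraries within a group was a duplicate (lowest chi-square per degree of freedom 7.11). Pairs across groups, such as those of a line at different time labels, were not checked.

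The members and lists were chosen with earlier results of these data known. Genes were named by rule: per comparison and complex the smallest p in each direction, the 3 highest and 3 lowest called members, the highest and lowest TPM per complex, all of complex II, the tissue isoforms, and the calls between responses. The other genes named, Ndufb2, Ndufv3, Atp5mpl and the list genes among them, were chosen after their values were seen. The result of 1 called member is not reported here.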

Additional observations from a re-analysis of the deposited data

Results flagged for a closer look

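For 12 members the change from t0 to t48 differed between NLS and LacZ lines by a direct test of that difference (edgeR, adjusted p under 0.05). It was larger upward in NLS, or smaller downward, for Cox6a1 (0.60 on the log2 scale), Ndufa1 (0.44) and Ndufs1 (0.27). It was lower in NLS for Sdhd (−0.55), Ndufs4 (−0.37), Sdha (−0.36), Cox7a2l (−0.36), Uqcrfs1 (−0.36), Cyc1 (−0.33), Atp5b (−0.28), Uqcrb (−0.28) and Atp5a1 (−0.23).

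Cox6a1 and Ndufa1 fell in LacZ and did not pass the test in NLS, and Sdhd and Sdha fell in NLS and rose in LacZ. Sdhd was called in all 24 alternative settings. The other 11 each lost the call in at least 1, with highest adjusted p values from 0.0585 (Cox7a2l) to 0.297 (Ndufa1). For Cyc1, 88.1% of reads came from transcripts not annotated as coding, and for Ndufs4 56.2%. On coding transcripts alone the mean of Cyc1 went from 23.7 to 29.0 CPM in NLS and from 72.8 to 47.1 CPM in LacZ, so the difference of its responses has the opposite sign there (0.92, without a test).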

How the results depend on the processing

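Of 181 alternative counts of called members, 124 were within 1.5 times the value reported. Summed levels were recomputed on library totals without TMM scaling and on protein-coding transcripts alone. Of these 60 sums, 30 moved by more than 1 SD of their group. With the replicate block (cell line), the counts were 38 for NLS t6 against t0, 29 for NLS t48 against t0, 25 for t48 against t6, 22 for LacZ t48 and 23 for the difference of responses. With block and length offset together they were 39, 32, 28, 25 and 25. With only the groups compared, the counts were 11 for NLS t6, 7 for NLS t48 and 10 for LacZ line 12 against 10. Without the low-count filter LacZ t48 gave 7 and line 7 against 6 gave 12. For line 7 against 16, DESeq2 gave 4, limma on TPM 3 and a fit without time 0. For line 7 against 6, DESeq2 gave 4, the length offset 11, limma on TPM 0 and a fit without time 0. The cause was not tested.

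Leaving out single libraries or lines gave 4 to 26 for NLS t6, 3 to 14 for NLS t48, 8 to 15 for t48 against t6, 0 to 5 for LacZ t48, 2 to 15 for the difference of responses, 23 to 33 and 24 to 40 for NLS against LacZ at t0 and t48, 0 to 4 for line 6 against 16, 3 to 10 for 7 against 16, 2 to 7 for 7 against 6, and 0 for 12 against 10. Where an arm had 1 library left, its spread was taken from the other groups. For named genes, 1132 of 1436 alternative values kept direction and call, 304 lost the call and 0 reversed. Of the 81 named pairs of member and comparison, only 27 kept call and direction in every alternative. An alternative chosen after seeing the data, coding transcripts alone (ratio of group means, no test), was computed for 13 named results with over 20% of reads on other transcripts. It reversed 3 of them: Cyc1 for NLS t0 against LacZ t0 (−1.62) and for the difference of responses (0.92), and Atp5f1 for line 7 against 16 (−0.01). At this depth Cox4i2 and the 5 genes without reads could not be tested.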
